A study of Mus musculus with 16 samples.

Results

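The subcortical maternal complex is a protein assembly that lies beneath the plasma membrane of the mammalian egg, and 8 genes of it were followed here in mouse oocytes: Nlrp5, Ooep, Tle6, Khdc3, Padi6, Nlrp2, Nlrp4f and Zbed3. They were taken by gene name, and all 8 were found among the 27987 gene names of the expression table. Padi6 is listed as 2 separate entries, so that the 8 genes hold 9 of the 28618 entries; which transcript each Padi6 entry stands for is not given in the sources used here, and they are called entry 1 (the higher) and entry 2. RNA-seq had been done on 16 libraries, 4 biological replicates in each of 4 groups: fully grown oocytes at the germinal vesicle (GV) stage and ovulated metaphase II (MII) eggs, each from wildtype (WT) females and from Psma7 cKO females. The cKO females carry a floxed Psma7 gene, which encodes an alpha subunit of the 20S proteasome core, and a Cre recombinase driven by the Zp3 promoter (Zp3-Cre; Psma7 flox/flox), which is active in oocytes from the primary follicle stage on, so that transcripts and protein made earlier in oocyte growth come from an intact gene. Whether the WT females carried the floxed alleles or the Cre is not stated in the labels. Females of 3 to 4 weeks were injected with 5 IU of pregnant mare serum gonadotropin, GV oocytes were taken 44 h later, and eggs were taken 14 to 16 h after human chorionic gonadotropin and freed of cumulus cells with 0.3% hyaluronidase. Each library was made from a pool of oocytes (5 per the labels, while the methods text of the study gives a larger number per sample) by Smart-seq2, with cDNA primed by oligo-dT, and the number of females behind a pool is not given, so that the p-values measure the spread between these pools.

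NLRP5 (also called MATER), OOEP (FLOPED) and TLE6 form the core of the complex, and KHDC3 (FILIA) binds to it. PADI6, a relative of the enzymes that convert arginine to citrulline, and the proteins of the core are needed for the cytoplasmic lattices, the fibres on which the egg stores proteins for the embryo. NLRP2 and NLRP4F, further members of the NLR family, and the zinc-finger protein ZBED3 have been described as components or associates of the complex. The genes are transcribed in the growing oocyte, which falls silent before meiosis resumes, and many maternal mRNAs are then degraded between the GV stage and the egg while the proteins stay on into the early embryo. Females that lack Nlrp5, Ooep, Tle6 or Padi6 ovulate eggs whose embryos arrest in the first cleavage divisions.

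The values are FPKM, fragments scaled to transcript length and to the mapped fragments of the library, which give each transcript's share of its library per unit of length. They do not give the amount per oocyte, and a shorter poly(A) tail and fewer molecules cannot be told apart where cDNA was primed with oligo-dT. Psma7 was checked first: it ranged from 142 to 201 FPKM in WT and from 11.1 to 18.0 FPKM in cKO GV oocytes, and from 97.7 to 172 FPKM in WT and from 13.6 to 59.9 FPKM in cKO eggs, with no overlap between genotypes at either stage. The 10 oocyte markers (among them Zp3, Gdf9 and Bmp15) were at 1 FPKM or more in all 16 libraries. Of the 14 cumulus and granulosa cell markers, 2 or 3 reached 1 FPKM in a library, their sum lay between 13.6 and 18.2 FPKM in every library, and Has2, Ptx3, Tnfaip6, Amh, Foxl2 and Lhcgr stayed at 0.1 FPKM or less. Ptgs2, Star and Inhba stayed at 0.689 FPKM or less. Fshr ran from 0.363 to 0.862 FPKM in GV oocytes and from 0 to 0.0343 FPKM in eggs. Inha ran from 0.0665 to 0.815 FPKM in GV oocytes and from 0 to 0.106 FPKM in eggs. Those that reached 1 FPKM were Cyp19a1 (6.20 to 15.2 FPKM), Nr5a2 (1.94 to 3.94 FPKM) and Cyp11a1 (0.273 to 2.63 FPKM). Cyp19a1 was higher in eggs than in GV oocytes, by 0.76 in WT (limma adjusted p = 3.72e-04) and 0.51 in the cKO (adjusted p = 0.00160) on the log2 scale. Nr5a2 fell by 0.61 in WT (adjusted p = 6.44e-04) and Cyp11a1 fell by 0.97 in the cKO (adjusted p = 3.08e-04). After the rescaling given below, the differences of Cyp19a1 were 1.22 and 0.91, and that of Cyp11a1 was -0.70 (limma adjusted p = 0.00194). The rescaled WT difference of Nr5a2 was -0.15 and did not pass (limma adjusted p = 0.285). The part of these markers in the stage differences was not tested. The depth was estimated at 10.6 to 15.7 M (mega) fragments per library. With transcript lengths from the annotation (for both Padi6 entries that of the same transcript, since theirs is not known), the lowest library held an estimated 163 fragments of Padi6 entry 2, 566 of Khdc3 and 971 of Tle6, and the other entries rested on 2132 or more.

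The 3′ ends of the transcripts are shown because the length of the poly(A) tail of a stored mRNA is set through sequences there, which include the polyadenylation signal and, in oocytes, the cytoplasmic polyadenylation element. For each gene a protein-coding GENCODE transcript with an annotated end was taken. It was the one ranked first by its APPRIS tag, which marks the principal isoform, and the longest where ranks were equal. The 30 bases ending at its last polyadenylation signal (AATAAA or ATTAAA) are given 5′ to 3′, with the signal in capitals. TTTTAT and TTTTAA, the letters of cytoplasmic polyadenylation elements, are also in capitals where they fall in the window. For Ooep, which had neither signal in its last 100 bases, the last 30 bases are shown. Positions are in GRCm38.
Nlrp5 (chr7:23441875-23441904, plus strand): ccttggaggatgtagcaagaatgaAATAAA
Ooep (chr9:78376109-78376138, minus strand): aactcaggaccacaggctatgagtagcata
Tle6 (chr10:81590919-81590948, minus strand): gtgtgcagatcccgagttgcgtgtAATAAA
Khdc3 (chr9:73104397-73104426, plus strand): tgcaaacacaatttaaagtattctAATAAA
Padi6 (chr4:140727373-140727402, minus strand): atgtaaacaaattgccatagagccAATAAA
Nlrp2 (chr7:5298564-5298593, minus strand): attcgtatcactggtatattggggAATAAA
Nlrp4f (chr13:65177134-65177163, minus strand): aattgctgctgttttgtgTTTTATATTAAA
Zbed3 (chr13:95337797-95337826, plus strand): ttgcaacactccttttttttTTTTAATAAA

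The signal AATAAA was present in the last 100 bases of Nlrp5, Tle6, Khdc3, Padi6, Nlrp2 and Zbed3, with the last copy starting 18 to 24 bases from the annotated end. Nlrp4f had ATTAAA, 23 bases from the end, and Nlrp2 had a further ATTAAA 71 bases from its end. Among 21747 transcripts with the same window, 61.1% held AATAAA and 19.0% ATTAAA. Nlrp4f held TTTTAT, which ran directly into its ATTAAA, and Zbed3 held TTTTAA, which overlapped its AATAAA, and TTTTAT 14 bases from its end, while the other 6 genes had neither of these letters in the window. Across the 21747 transcripts 12.8% held TTTTAT, 15.5% TTTTAA and 25.5% at least 1 of them. Letters were searched on the transcript strand, and a match is a description of these windows.

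In GRCm38 the 8 genes lie on 5 chromosomes. Nlrp5 (chr7:23385889-23441922, plus strand, 16 exons) and Nlrp2 (chr7:5298547-5351035, minus strand, 12 exons) share chromosome 7, 18.0 Mb apart. Ooep (chr9:78376109-78378725, minus strand, 3 exons) and Khdc3 (chr9:73101836-73104438, plus strand, 3 exons) are 5.27 Mb apart on chromosome 9, and Nlrp4f (chr13:65177111-65205977, minus strand, 11 exons) and Zbed3 (chr13:95323612-95337841, plus strand, 2 exons) are 30.1 Mb apart on chromosome 13. Tle6 (chr10:81590904-81601073, minus strand, 14 exons) and Padi6 (chr4:140727355-140742643, minus strand, 16 exons) are alone on theirs. Khdc3 overlaps the gene model Gm20509 on the same strand, with which 42.8% of its 50-base words were shared, and Gm20509 has no entry in the table, so that the Khdc3 value may hold reads of both. For Nlrp5 8.93% of words were shared with pseudogenes, and for Nlrp4f 7.08% with Nlrp4a, Nlrp4g and pseudogenes. Ooep shared 1.39% of its words, Tle6 1.17% and Nlrp2 0.835%, while Padi6 and Zbed3 shared none. How far shared words affect the levels was not tested.

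The complex genes ranged from the most abundant mRNAs of the WT GV oocyte to Padi6 entry 2 at rank 1958, and their order changed by the egg stage. In WT GV oocytes the means ran, in FPKM, from Zbed3 (2167) and Ooep (1637) through Nlrp5, Tle6, Nlrp4f and Nlrp2 to Padi6 entry 1 (208), Khdc3 (165) and Padi6 entry 2 (37.4). Zbed3 ranked 12 and Ooep 20 among all entries by mean, Nlrp5 ranked 50 and Padi6 entry 1 ranked 313. The neighbours Zbed3 and Ooep, Tle6 and Nlrp4f, and Padi6 entry 1 and Khdc3 had overlapping ranges over the 4 libraries and were not separated beyond their spread. In WT eggs Zbed3 (3096 FPKM) stood clear of Ooep (1420.0 FPKM), Nlrp4f and Nlrp5 followed with overlapping ranges, Padi6 entry 1 came next, and Tle6, Nlrp2 and Khdc3 were together near the end of the order, each overlapping its neighbour. By rank, Tle6 passed from 74 in WT GV oocytes to 886 in WT eggs, Nlrp2 from 123 to 1000 and Khdc3 from 413 to 1402, whereas Zbed3 was at rank 12 at both stages. The order of the means in cKO GV oocytes was the same as in WT. In cKO eggs Khdc3 and Nlrp2 had changed places, with overlapping ranges.

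**Figure D1:**
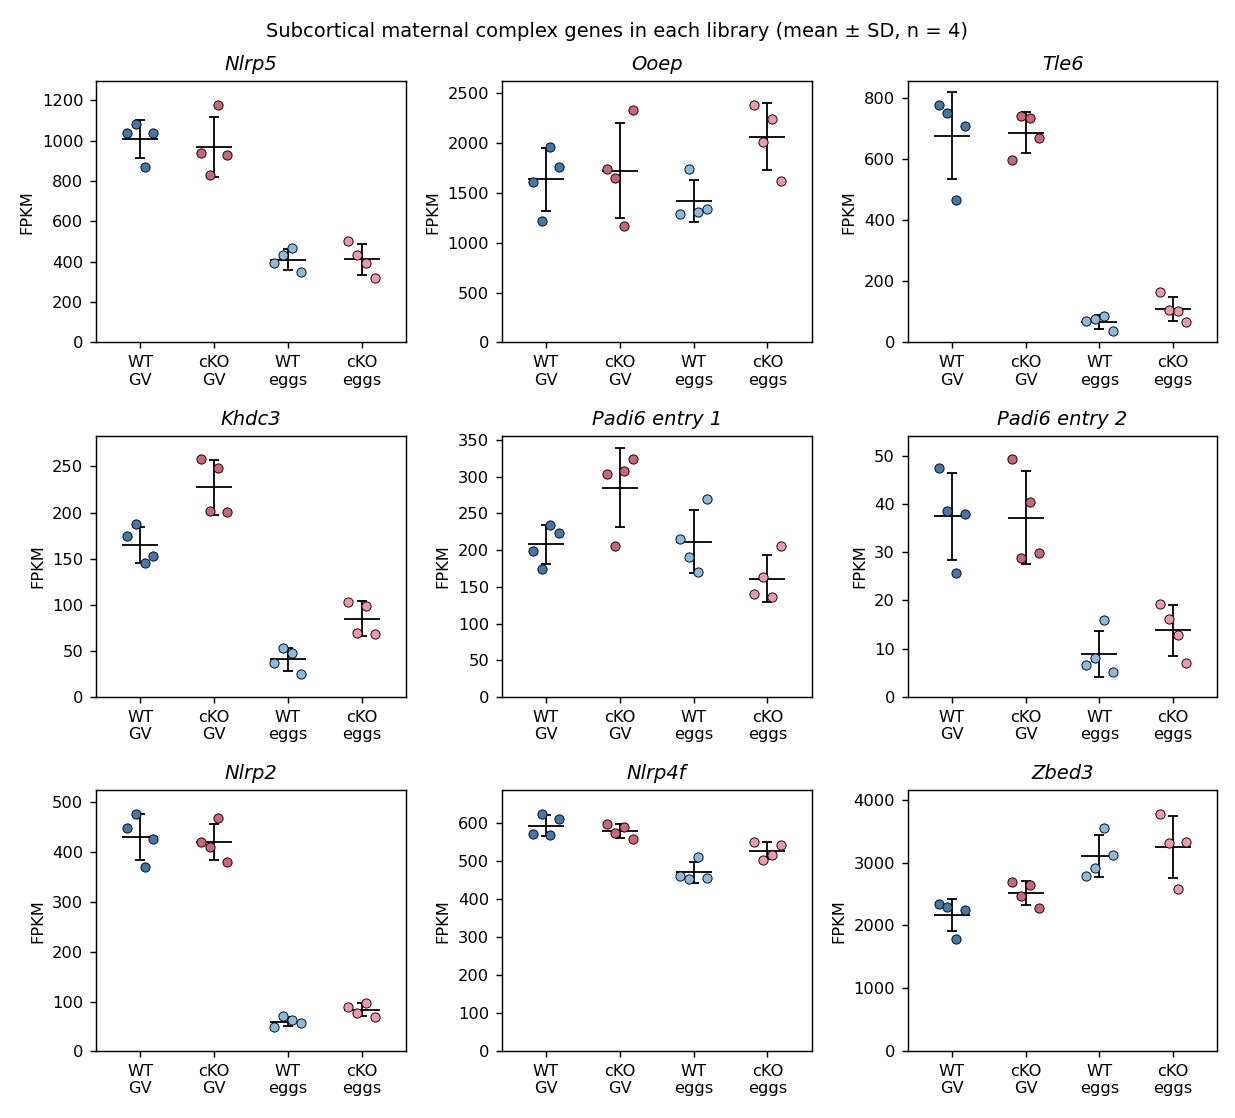
FPKM of the 9 entries of the 8 complex genes in each library. Each panel has its own linear axis from 0; points are libraries, horizontal bars the mean and error bars the SD (n = 4). Tle6, Khdc3, Nlrp2 and Nlrp5 lie lower in eggs than in GV oocytes of both genotypes. For Khdc3 all cKO libraries lie above all WT libraries at both stages, as for 4.25% of all entries in GV oocytes and 13.6% in eggs. Its genotype difference did not pass the test in GV oocytes (limma adjusted p = 0.165). The call in eggs (limma adjusted p = 0.0338) was lost without some of the single libraries.

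Between GV oocytes and eggs of WT females, 6 of the 9 entries fell (Tle6, Nlrp2, Padi6 entry 2, Khdc3, Nlrp5 and Nlrp4f, the last of which turned upward after the rescaling given below), 1 rose (Zbed3), and Ooep and Padi6 entry 1 did not pass the test (limma on log2 FPKM floored at 1, Benjamini-Hochberg adjusted p under 0.05 over 10475 entries). Of all entries tested, 52.4% fell and 26.1% rose in this comparison. In the cKO 6 entries fell as well (Tle6, Nlrp2, Padi6 entry 2, Khdc3, Nlrp5 and Padi6 entry 1), 1 rose (Zbed3), and Nlrp4f and Ooep did not pass, beside 51% of all entries that fell and 23% that rose among 10748. The median log2 change of the 9 entries was -1.30 in WT and -1.24 in the cKO, against -0.44 and -0.42 over all entries tested. All eggs lay below all GV libraries for 6 entries in WT and 7 in the cKO, as did 48.7% and 47.2% of all entries. The stage comparisons share no libraries, and 5 entries fell in both. The share of all entries that fell in both was not computed. A share of a library depends on all of its other transcripts, and rescaling each library to the median ratio of expressed entries moved the WT stage difference of the members by 0.46 and the cKO one by 0.40 on the log2 scale. After it 2738 higher and 5486 lower calls became 4223 and 4167 over all entries in WT, 2472 and 5482 became 3809 and 4044 in the cKO, and of the members 5 fell and 2 rose in WT and 5 fell and 3 rose in the cKO. The rescaled values are therefore given beside the stage differences of the single genes.

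Between genotypes, none of the 9 entries passed the test in GV oocytes (limma; 2 were at an unadjusted p under 0.05, Khdc3 and Padi6 entry 1, beside 10.7% of all entries), where 0.118% of 11062 entries passed in either direction. In eggs 2 passed, Khdc3 and Ooep, both higher in the cKO, beside 6.53% of 9492 entries that were higher and 1.49% that were lower. The median log2 genotype difference of the 9 entries was 0.044 in GV oocytes and 0.48 in eggs, against 0.042 and 0.070 over all entries. Rescaling by the median ratio moved the difference in eggs by 0.12 and that in GV oocytes by 0.058, turned 620 higher and 141 lower calls in eggs into 501 and 332, and left Khdc3 past the threshold but not Ooep. The calls in eggs depended on single libraries: over all entries 12, 109, 3 and 31 were called higher without WT egg replicates 1 to 4 in turn, and 166, 1024, 287 and 360 without cKO egg replicates 1 to 4. For the test of whether the genotype difference in eggs differed from that in GV oocytes, 0 of the 9 entries passed, beside 1.26% of 10615; 4 had an unadjusted p under 0.05 (Khdc3, Padi6 entry 1, Nlrp2 and Nlrp4f), beside 17.7% of all entries.

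**Figure D2:**
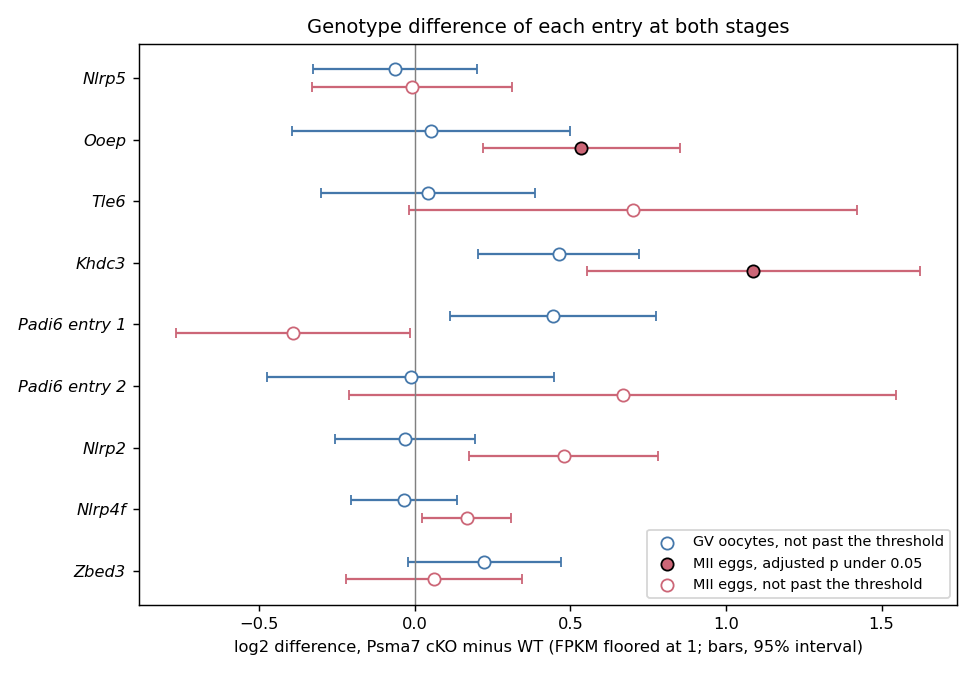
Difference between Psma7 cKO and WT for each entry, in GV oocytes (blue) and eggs (red), as log2 of FPKM floored at 1, with the 95% interval of the limma fit (n = 4 per group). Filled points passed the adjusted threshold, which were Ooep at 0.53 and Khdc3 at 1.09 in eggs; Padi6 entry 1 lies above 0 in GV oocytes and below 0 in eggs.

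Nlrp5 encodes the NLR protein of the core and was the first of the complex genes found to be needed by the embryo. It was at 1038, 1083, 871 and 1039.8 FPKM in the WT GV libraries (replicates 1 to 4) and at 938, 829, 1178 and 931 FPKM in the cKO ones. In eggs it was at 396, 434, 466 and 348 FPKM in WT and 501, 435, 393 and 317 FPKM in the cKO. All 8 egg libraries lay below all 8 GV libraries, and the genotypes overlapped at both stages. From GV oocyte to egg Nlrp5 fell 2.46-fold in WT, a log2 difference of -1.30 (SE 0.11, adjusted p = 8.64e-07), and 2.37-fold in the cKO, a difference of -1.24 (SE 0.15, adjusted p = 7.98e-05); after rescaling these were -0.83 and -0.84. The genotype difference was -0.064 (95% interval -0.33 to 0.20, adjusted p = 0.895) in GV oocytes and -0.0095 (95% interval -0.33 to 0.31, adjusted p = 0.974) in eggs. The egg groups had almost the same mean, 411 ± 50.8 FPKM in WT and 412 ± 77.0 FPKM in the cKO (SD, n = 4).

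Ooep, which encodes the small KH-domain protein of the core, did not pass the test between stages in either genotype. The WT GV libraries held 1609.8, 1218, 1956 and 1763 FPKM and the cKO GV libraries 1741, 1647, 1168 and 2333 FPKM, a spread that made Ooep the most variable of the members among cKO GV libraries. In eggs the values were 1293, 1738, 1312 and 1337 FPKM in WT and 2384, 2007, 2245 and 1616 FPKM in the cKO. Neither stage difference passed the test, with -0.19 (SE 0.15, adjusted p = 0.252) in WT and 0.29 (SE 0.20, adjusted p = 0.228) in the cKO, and both were positive after rescaling (0.27, adjusted p = 0.141, and 0.69, adjusted p = 0.00949). Without WT GV replicate 2 the WT difference passed, at -0.33 (adjusted p = 0.0364). In GV oocytes the genotypes differed by 0.052 (95% interval -0.39 to 0.50, adjusted p = 0.950). In eggs Ooep was 1.45-fold higher in the cKO, a log2 difference of 0.53 (95% interval 0.22 to 0.85, adjusted p = 0.0499). The groups overlapped through WT egg replicate 2, the highest of WT, which lay above cKO egg replicate 4. This call was at the threshold: it was lost without WT egg replicate 1, 2, 3 or 4 (adjusted p = 0.138, 0.0610, 0.111 and 0.102) and without cKO egg replicate 1, 2 or 3 (adjusted p = 0.0911, 0.0601 and 0.10). It was also lost with 1 FPKM added in place of the floor (adjusted p = 0.0518), with no filter on low entries (0.0720), with no intensity trend (0.0680), with the replicate block (0.0797), with rescaling (0.0714) and with all 16 libraries in 1 fit (0.0677). The difference between the stages in this genotype effect was 0.48 (SE 0.27, adjusted p = 0.379).

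Tle6, a member of the Groucho family of corepressors that serves as a structural partner in the core, fell the most of the 9 entries. WT GV libraries were at 779, 752, 468 and 711 FPKM and cKO GV libraries at 599, 744, 737 and 671 FPKM. Eggs were at 69.5, 77.9, 87.1 and 36.4 FPKM in WT and at 164, 107, 104 and 66.2 FPKM in the cKO, far below every GV library. Tle6 fell 10.3-fold in WT, with -3.37 (SE 0.26, adjusted p = 4.74e-07), and 6.54-fold in the cKO, with -2.71 (SE 0.23, adjusted p = 9.18e-06); rescaled, the differences were -2.90 and -2.31. On arithmetic means Tle6 was the member that passed the 10-fold rule for decaying transcripts in WT, by a ratio of 10.0, where 3.79% of entries passed it. In the cKO the ratio was 6.24, 0 members passed and 0.605% of entries did. The WT call rested on single libraries: without WT GV replicate 1, 2 or 4 or WT egg replicate 4, Tle6 was no longer past it. In eggs the genotype difference was 0.70 (95% interval -0.017 to 1.42, adjusted p = 0.179), with overlapping groups, and in GV oocytes it was 0.044 (95% interval -0.30 to 0.39, adjusted p = 0.946). The test of the difference between the stages gave 0.66 (SE 0.38, adjusted p = 0.397).

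Khdc3, the KH-domain partner also known as FILIA, showed the largest genotype difference. In WT GV oocytes it was at 174, 187, 145 and 153 FPKM, and in cKO GV oocytes at 258, 202, 248 and 201 FPKM. All 4 cKO libraries were above all 4 WT libraries, an arrangement shown by 4.25% of all entries, and the difference of 0.46 (95% interval 0.20 to 0.72, adjusted p = 0.165) did not pass the test over all entries. WT eggs were at 36.7, 53.5, 47.3 and 25.4 FPKM and cKO eggs at 103, 69.0, 98.7 and 68.6 FPKM, again with no overlap, as in 13.6% of all entries. Khdc3 was 2.13-fold higher in cKO eggs, a log2 difference of 1.09 (95% interval 0.55 to 1.62, adjusted p = 0.0338), from means of 40.7 ± 12.3 FPKM in WT and 84.9 ± 18.7 FPKM in the cKO (SD, n = 4). It stayed below the 3-fold rule for changed transcripts, as did every other member, where 1.76% of entries in eggs were past it. With 1 library left out the difference stayed between 0.88 and 1.24, but the call was lost without WT egg replicate 1, 2, 3 or 4 (adjusted p = 0.101, 0.0527, 0.0697 and 0.0646) and without cKO egg replicate 1 or 3 (adjusted p = 0.0635 and 0.0615). It was also lost with no filter on low entries (adjusted p = 0.0505) and with the replicate number as a block (adjusted p = 0.0515). Between stages Khdc3 fell 4.18-fold in WT, with -2.06 (SE 0.20, adjusted p = 3.31e-06), and 2.71-fold in the cKO, with -1.44 (SE 0.16, adjusted p = 4.62e-05), or by 1.60 and 1.04 after rescaling. The genotype difference was not shown to differ between eggs and GV oocytes, with a difference of 0.63 (SE 0.28, adjusted p = 0.260).

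Padi6 encodes the oocyte peptidylarginine deiminase of the cytoplasmic lattices and is listed as 2 entries. Entry 1, the higher, was at 198, 175, 235 and 223 FPKM in WT GV oocytes and 303, 206, 308 and 324 FPKM in cKO GV oocytes. In eggs it was at 216, 191, 170.2 and 270.2 FPKM in WT and 139.8, 163, 136 and 205 FPKM in the cKO. WT eggs spanned the WT GV range, whereas all cKO eggs lay below all cKO GV libraries, although the nearest pair, GV replicate 2 and egg replicate 4, were at 206 and 205 FPKM. The stage difference was 0.015 (95% interval -0.30 to 0.33, adjusted p = 0.927) in WT, and in the cKO entry 1 fell 1.77-fold, with -0.82 (SE 0.18, adjusted p = 0.00215). Rescaled, entry 1 was higher in WT eggs (0.48, adjusted p = 0.0160), and the fall in the cKO no longer passed (-0.42, adjusted p = 0.0674). The genotype difference was positive in GV oocytes, 0.44 (95% interval 0.11 to 0.77, adjusted p = 0.302), and negative in eggs, -0.39 (95% interval -0.77 to -0.016, adjusted p = 0.155), and passed at neither stage. The difference between these, -0.84 (95% interval -1.35 to -0.32, adjusted p = 0.0887), was the largest of the members in the test of genotype by stage and missed the threshold; it lay between -0.99 and -0.71 under the alternatives, with an adjusted p of 0.0570 or more.

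Padi6 entry 2 was at 47.4, 38.6, 25.7 and 37.9 FPKM in WT GV oocytes and at 49.2, 28.8, 40.5 and 29.9 FPKM in cKO ones. In eggs it was at 6.59, 8.00, 15.9 and 5.27 FPKM in WT and 19.3, 16.2, 12.9 and 6.94 FPKM in the cKO, below every GV library of the same genotype. It fell 4.48-fold in WT, with -2.16 (SE 0.31, adjusted p = 6.32e-05), and 2.79-fold in the cKO, with -1.48 (SE 0.31, adjusted p = 0.00187); rescaled, -1.70 and -1.08. In eggs the genotypes overlapped and differed by 0.67 (95% interval -0.21 to 1.55, adjusted p = 0.282). Entry 2 made up 15.4% ± 4.24 of the summed Padi6 FPKM in WT GV oocytes and 4.36% ± 2.92 in WT eggs, and 11.6% ± 2.31 and 8.27% ± 3.68 in the cKO (SD, n = 4). With both entries summed, Padi6 changed by -0.16 (SE 0.12, adjusted p = 0.240) between stages in WT and by -0.87 (SE 0.16, adjusted p = 8.86e-04) in the cKO.

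Nlrp2, an NLR gene whose protein has been placed in the complex, fell between the stages in both genotypes. It was at 448, 477, 369.6 and 426 FPKM in WT and at 421, 409, 469 and 381 FPKM in cKO GV oocytes. Eggs held 49.9, 71.2, 62.1 and 56.7 FPKM in WT and 89.6, 77.3, 97.8 and 69.5 FPKM in the cKO. The fall was 7.20-fold in WT, with -2.85 (SE 0.12, adjusted p = 5.12e-09), and 5.06-fold in the cKO, with -2.34 (SE 0.12, adjusted p = 1.22e-06), and remained after rescaling (-2.38 and -1.94). In GV oocytes the genotypes differed by -0.032 (95% interval -0.26 to 0.19, adjusted p = 0.939). In eggs 3 of the 4 cKO libraries lay above the highest WT library, and the difference of 0.48 (95% interval 0.17 to 0.78, adjusted p = 0.0584) missed the threshold. It passed when entries below a mean of 5 FPKM were left out (adjusted p = 0.0486) and when all 16 libraries shared 1 estimate of the spread (adjusted p = 0.0157). The genotype difference was not shown to differ between stages, with 0.51 (SE 0.17, adjusted p = 0.138).

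Nlrp4f, an NLR gene of the oocyte-expressed Nlrp4 subfamily, was the steadiest member among replicates, with coefficients of variation of 3.02% to 5.70% in the 4 groups. WT GV libraries held 572, 626, 569.7 and 612 FPKM and cKO GV libraries 598, 576, 589.7 and 558 FPKM. In eggs the values were 463, 454, 511 and 456 FPKM in WT and 551, 504, 517 and 542 FPKM in the cKO. At each genotype all eggs were below all GV libraries. The fall was 1.26-fold in WT, with -0.34 (SE 0.073, adjusted p = 0.00150), and the cKO difference of -0.14 (SE 0.069, adjusted p = 0.102) did not pass. Its direction turned with the scaling: relative to the median transcript Nlrp4f was higher in eggs, by 0.13 in WT (adjusted p = 0.178) and by 0.27 in the cKO (adjusted p = 0.0194). Between genotypes it differed by -0.034 (95% interval -0.20 to 0.13, adjusted p = 0.912) in GV oocytes and by 0.17 (95% interval 0.024 to 0.31, adjusted p = 0.121) in eggs, where 1 WT library, replicate 3, overlapped the cKO range.

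Zbed3, a BED-type zinc-finger gene, had the highest mean of the members in every group, with a range that overlapped that of Ooep in GV oocytes of both genotypes, and was the one that rose before rescaling. After rescaling Padi6 entry 1 in WT and Ooep and Nlrp4f in the cKO rose as well. It was at 2344, 2290.2, 1781 and 2253 FPKM in WT GV oocytes and 2697, 2468, 2636 and 2278 FPKM in cKO GV oocytes. In eggs it was at 2792, 2921, 3554 and 3118 FPKM in WT and 3775, 3308, 2581 and 3334 FPKM in the cKO. All WT eggs were above all WT GV oocytes, as in 23.9% of entries, and the groups overlapped in the cKO through egg replicate 3. Zbed3 rose 1.43-fold in WT, with 0.52 (SE 0.11, adjusted p = 0.00154), and 1.28-fold in the cKO, with 0.36 (SE 0.12, adjusted p = 0.0253). After rescaling the differences were 0.98 and 0.76. The cKO call was lost without cKO GV replicate 2 or 4 (adjusted p = 0.0610 and 0.0694) or without cKO egg replicate 1, 2 or 4 (adjusted p = 0.0651, 0.0583 and 0.0547). The genotype difference was 0.22 (95% interval -0.023 to 0.47, adjusted p = 0.517) in GV oocytes and 0.062 (95% interval -0.22 to 0.35, adjusted p = 0.778) in eggs.

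Set against the mean of GV oocytes of the same genotype, the egg level ranged widely over the members. In WT eggs Tle6 was at 9.99% ± 3.26 of its GV level, Nlrp2 at 13.9% ± 2.09, Padi6 entry 2 at 23.9% ± 12.8 and Khdc3 at 24.7% ± 7.48 (SD over 4 egg libraries). Nlrp5 was intermediate at 40.8% ± 5.03, and Nlrp4f, Ooep and Padi6 entry 1 were at 79.2% ± 4.52, 86.8% ± 13.0 and 102% ± 20.8. Zbed3 reached 143% ± 15.4. In the cKO the same measure gave 16.0% ± 5.86 for Tle6, 19.9% ± 3.00 for Nlrp2, 37.3% ± 14.3 for Padi6 entry 2 and 37.4% ± 8.22 for Khdc3. It gave 42.5% ± 7.95 for Nlrp5, 91.1% ± 3.72 for Nlrp4f, 119.8% ± 19.5 for Ooep, 56.5% ± 11.1 for Padi6 entry 1 and 129% ± 19.6 for Zbed3. The genotypes did not overlap for Nlrp4f (76.4% to 85.9% in WT, 86.9% to 94.9% in the cKO) and Padi6 entry 1 (82.0% to 130.1% and 47.9% to 72.0%), and they overlapped for the other 7 entries. Over all entries 20.6% did not overlap by this measure, a share close to the members' 2 of 9. For the test of this difference, the genotype by stage term, 0 of the 9 entries passed. All these percentages are of FPKM before rescaling. After rescaling the WT stage differences of Nlrp4f and Ooep were positive, at 0.13 and 0.27 on the log2 scale (limma adjusted p = 0.178 and 0.141).

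Some libraries stood at the edge of their group for most entries. WT GV replicate 3 was the lowest of its group for 7 of the 9 entries and the highest for the other 2, and without it no call of a member changed, while the genotype difference of Tle6 in GV oocytes turned to -0.12 (adjusted p = 0.747). Among cKO eggs replicate 1 was the highest of the 4 for 7 of the 9 entries and replicate 4 the lowest for 6 of them. The summed FPKM of the other 396 entries that were over 10-fold lower in WT eggs than in WT GV oocytes was at 12.4%, 8.64%, 34.9% and 19.3% of its GV level in cKO egg replicates 1 to 4, against 5.83% to 6.68% in the WT eggs that had chosen them. The library with the most of these decaying transcripts was thus replicate 3, not replicate 1. In it Tle6 was at 15.1% and Khdc3 at 43.4% of the GV level, beside 23.8% and 45.4% in replicate 1. Psma7 was at 13.6, 50.3, 34.98 and 59.9 FPKM in cKO egg replicates 1 to 4, so that the library with the least of the targeted transcript was the one in which most members were highest. The part of these library differences in the members' values was not tested.

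**Figure D3:**
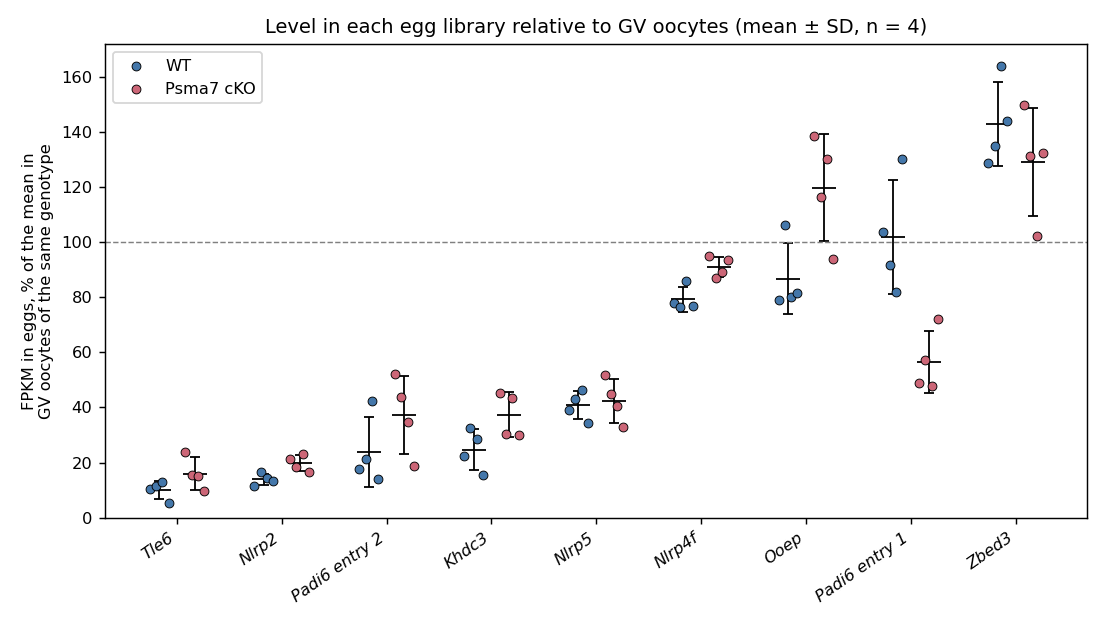
FPKM of each entry in each egg library as a percentage of the mean in GV oocytes of the same genotype, on a linear axis from 0, ordered by the WT mean. Points are libraries of WT (blue) and Psma7 cKO (red), bars the mean and SD (n = 4), and the dashed line 100%. The values are not rescaled. Tle6 and Nlrp2 lie lowest in both genotypes, and Zbed3 lies above 100% in all 8 libraries. Without overlap, Padi6 entry 1 is lower and Nlrp4f higher in the cKO, where 20.6% of all entries do not overlap in either direction. Neither passed the test of genotype by stage (limma adjusted p = 0.0887 and 0.251).

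As a sum, the 9 entries made up 1.71% ± 0.130 of all FPKM in WT GV oocytes, 1.84% ± 0.0474 in cKO GV oocytes, 1.46% ± 0.102 in WT eggs and 1.64% ± 0.195 in cKO eggs (SD, n = 4). Within that sum Zbed3 went from 31.2% in WT GV oocytes to 53.5% in WT eggs, and from 33.9% to 48.4% in the cKO. The core trio of Nlrp5, Ooep and Tle6 went from 48.0% to 32.8% in WT and from 45.3% to 38.5% in the cKO. In eggs its share was 29.96% to 37.8% in WT and 32.1% to 44.3% in the cKO, so that the genotypes overlapped.

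Inside the core trio the proportions moved with the stage, and these ratios of FPKM within a library do not depend on the scaling between libraries. The ratio of Nlrp5 to Tle6 was 1.52 ± 0.232 in WT GV oocytes and 6.55 ± 2.03 in WT eggs, and 1.42 ± 0.221 and 3.93 ± 0.718 in the cKO. In eggs it ran from 5.36 to 9.58 in WT and from 3.06 to 4.79 in the cKO, lower in the cKO. The ratio of Ooep to Nlrp5 was 1.65 ± 0.463 and 3.48 ± 0.547 in WT, and 1.84 ± 0.628 and 5.05 ± 0.490 in the cKO. In eggs it ran from 2.81 to 4.01 in WT and from 4.62 to 5.72 in the cKO, higher in the cKO. The genotypes overlapped for neither of these ratios in eggs, but they did overlap for the remaining ratio of the trio, Ooep to Tle6. No test was made of the ratios, and how often other pairs of genes separate the genotypes was not computed. For Ooep to Nlrp5 both egg groups lay above the highest GV library, at 2.51.

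**Figure D4:**
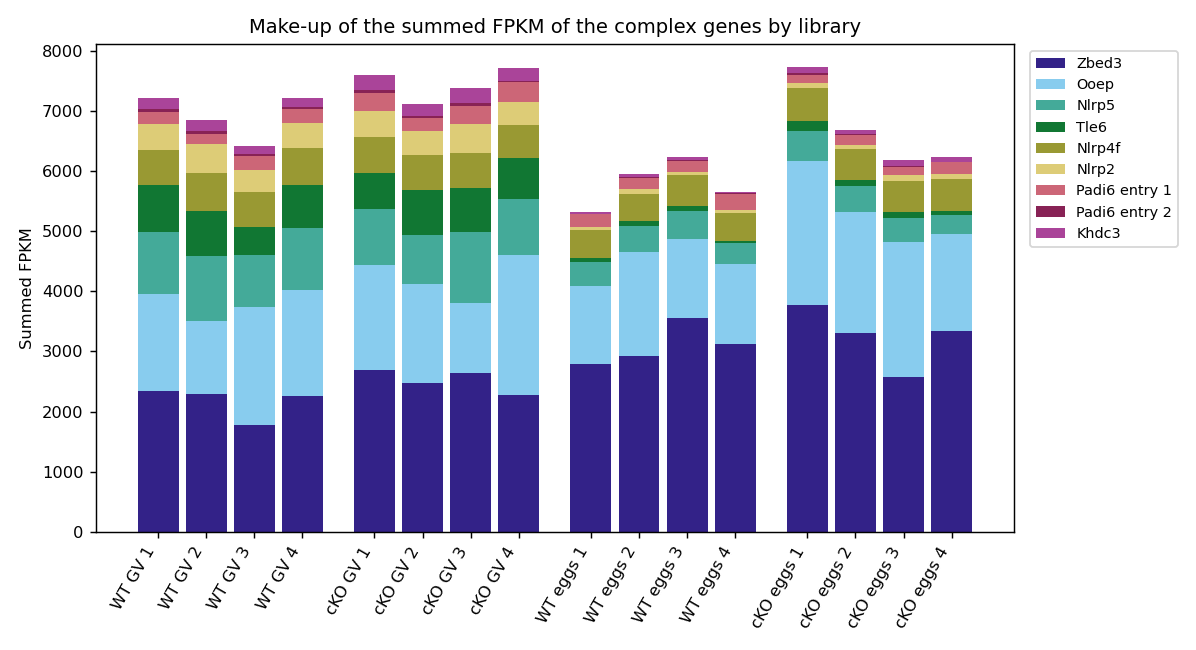
Summed FPKM of the 9 entries in each of the 16 libraries, as stacked bars from 0 with 1 colour per entry. Zbed3 and Ooep make up most of the sum in eggs, and the bands of Nlrp5, Tle6, Nlrp2 and Khdc3 are thinner in eggs than in GV oocytes of both genotypes.

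The entry with the closest profile was found for each member, by the root mean square difference of log2 floored FPKM over the 16 libraries, each centred on its own mean, among 4540 entries with a mean of at least 10 FPKM. For the core these were Lrpprc for Nlrp5 (0.12), Pam16 for Ooep (0.14) and Pabpc1l, a poly(A)-binding protein gene of the oocyte, for Tle6 (0.18). The others were Isca1 for Khdc3 (0.27), Mrpl50 for Padi6 entry 1 (0.25), Pgam5 for Padi6 entry 2 (0.34), Ddx56 for Nlrp2 (0.14), Cdkn2aipnl for Nlrp4f (0.078) and Cdca4 for Zbed3 (0.080). For no member was another member the closest. Tle6 and Nlrp2 were each other's closest member at 0.39, where Nlrp2 was 62nd in the order for Tle6 and Tle6 323rd in that for Nlrp2, and Khdc3 and Padi6 entry 2 were each other's closest member at 0.42. The nearest pair of members was Ooep and Nlrp4f, at 0.35, where Nlrp4f was 449th in the order for Ooep and Ooep 1502nd in that for Nlrp4f.

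The lists of related genes that follow were chosen with earlier results of these data known and are described by their counts. Of 6 genes tested whose proteins have been described with the complex or the lattices (Nlrp14, Uhrf1, Ube2d3, Skp1a, Dnmt1 and Cfl1), 0 passed for genotype at either stage. Between stages in WT, Ube2d3, a ubiquitin-conjugating enzyme gene, rose by 0.64 on the log2 scale (adjusted p = 3.95e-05), and Nlrp14 and Uhrf1 fell by 0.92 (adjusted p = 6.48e-06) and 0.36 (adjusted p = 0.0215). In the cKO 3 rose and 2 fell, where the log2 difference was -0.69 for Nlrp14 (adjusted p = 4.40e-04), -0.56 for Uhrf1, a factor of DNA methylation maintenance (adjusted p = 0.00623), and 0.50 for Skp1a (adjusted p = 3.28e-04). After rescaling 4 of these genes rose in each genotype, 1 (Nlrp14) fell in WT and 0 in the cKO, and the WT difference of Uhrf1 turned to 0.11 (adjusted p = 0.381). Their median log2 stage difference was 0.036 in WT and 0.14 in the cKO, beside -1.30 and -1.24 for the members and -0.44 and -0.42 for all entries tested.

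Relatives of the members by gene family (other Nlrp, Tle, Khdc1 and Zbed genes and the like, Nlrp14 among them) were described in the same way. Of 18 entries tested, 6 rose and 8 fell between stages in WT, and 7 rose and 8 fell in the cKO; after rescaling 9 rose and 5 fell in WT and 9 rose and 4 fell in the cKO. The largest differences in WT were those of the KH-domain genes Khdc1c (1.66, adjusted p = 1.13e-04) and Dppa5a (-1.47, adjusted p = 1.25e-05) and of Zbed5 (-1.38, adjusted p = 1.32e-06). Between genotypes 0 of 18 passed in GV oocytes and 0 of 17 in eggs.

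Among 16 entries of other maternal effect genes, which the embryo needs from the egg, 6 rose and 7 fell between stages in WT and 4 rose and 6 fell in the cKO; rescaled, 8 rose and 3 fell, and 7 rose and 4 fell. Zar1l, a relative of the zygote arrest gene Zar1, fell by 3.31 in WT (adjusted p = 3.88e-09) and by 2.31 in the cKO (adjusted p = 1.85e-04). Btg4, an adaptor of the deadenylase that removes maternal mRNA, rose by 1.39 (adjusted p = 1.73e-07) and 1.30 (adjusted p = 3.85e-06). Between genotypes 0 of the 16 passed at either stage.

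Of 6 oocyte transcription factor genes tested, 5 fell between stages in WT and 4 in the cKO, or 3 and 4 after rescaling. The log2 stage difference in WT was -3.55 for Figla (adjusted p = 7.49e-08), -2.77 for Lhx8 (adjusted p = 3.81e-09) and -2.30 for Nobox (adjusted p = 2.11e-08), beside -3.37 for Tle6. In eggs Figla and Lhx8 were higher in the cKO, by 1.57 (adjusted p = 0.0311) and 0.92 (adjusted p = 0.0255), and both remained so after rescaling, at 1.45 (adjusted p = 0.0270) and 0.80 (adjusted p = 0.0206). For Figla the genotype difference was larger in eggs than in GV oocytes by 1.68 (adjusted p = 0.0425), and 0 of the other 5 passed that test; after rescaling Lhx8 passed it too, at 0.78 (adjusted p = 0.0313). The egg calls of both genes were not recomputed with single libraries left out.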

How the data were processed

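Oligo-dT-primed cDNA of 16 oocyte pools had been sequenced, and the authors deposited 1 table with the FPKM of each library. Per the labels' processing notes TopHat2 2.1.1, Cufflinks 2.2.1 and build mm10 were used; the gene annotation is not given in the sources used here. Depth was estimated from the steps between low FPKM values (10.6 to 15.7 M fragments per library).

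All 16 columns were used, and samples were grouped by the labelled genotype and stage. FPKM below 1 was set to 1, following the study, entries whose mean in the compared libraries reached 1 FPKM were kept, and log2 values were tested with limma 3.58.1 (R 4.3.3, intensity trend, two-sided, Benjamini-Hochberg over all entries tested, threshold 0.05). Each comparison was fitted on its 8 libraries, and the genotype by stage term on all 16. The fit was tested on simulated data. Because of the floor, fold changes of low entries are understated. The study's fold rule (over 3-fold between genotypes, here 10-fold between stages) was applied to means without a test.

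Alternatives were a floor of 0.1, 1 FPKM added in place of the floor, no filter, a minimum mean of 5 FPKM, no trend, a replicate block, median-ratio rescaling, all 16 libraries in 1 fit, entries summed by gene name, and each library left out. Gene positions, 3′ ends and 50-base words shared with other transcripts came from GENCODE M21 (GRCm38), in Python 3.11.15. The members and lists were chosen with earlier results of these data known. All members are named; in each list at most the 3 entries with the largest difference past the threshold in a comparison are named.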

Additional observations from a re-analysis of the deposited data

Results flagged for a closer look

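In 3 of the 36 groups of 4 values (9 entries in 4 groups), 1 library stood apart from the other 3 by more than Dixon's 95% critical value for the gap over the range, and chance gives about 1 in 20 such groups. Ooep was at 1738 FPKM in WT egg replicate 2, above the other WT eggs. Nlrp4f was at 511 FPKM in WT egg replicate 3, above the other WT eggs. Zbed3 was at 1781 FPKM in WT GV replicate 3, below the other WT GV oocytes. The first 2 of these libraries are those through which the WT and cKO eggs overlapped for Ooep and Nlrp4f.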

How the results depend on the processing

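Over all alternatives and left-out libraries, 756 recomputed log2 differences of the 9 entries kept their direction and their side of the threshold. With the direction kept, 27 lost the call and 5 gained one, and 30 changed sign. Among those that changed sign, the rescaled stage difference of Nlrp4f lost its call in WT (limma adjusted p = 0.178) and gained one in the cKO (0.0194). The 2 entries higher in cKO eggs became 1 with 1 FPKM added, with no intensity trend and with median-ratio rescaling, 0 with no filter, 3 with a mean of at least 5 FPKM (Nlrp2 was added), and 0 to 2 with a library left out. With all 16 libraries in 1 fit the 2 were Khdc3 and Nlrp2, not Ooep. The 1 entry higher in WT eggs than GV oocytes became 2 with rescaling. The 1 higher in cKO eggs than GV oocytes became 3, and 0 to 1 with a library left out. At a 2-fold rule 1 entry (Khdc3) was higher in cKO eggs. At a 5-fold rule 2 entries (Tle6 and Nlrp2) were lower in eggs of each genotype. The shares of all entries past the 2-fold and 5-fold rules were not computed. The 1 entry past 10-fold in WT became 0 with rescaling and 0 to 1 with a library left out.

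Rescaling turned the log2 genotype difference of Ooep and Tle6 in GV oocytes to -0.0057 and -0.014 and that of Zbed3 in eggs to -0.059. It turned the stage difference of Ooep to 0.27 and of Nlrp4f to 0.13 in WT, that of Nlrp4f to 0.27 in the cKO, and the genotype by stage term of Nlrp5 to -0.0086. By construction it sets the median ratio of expressed entries to 1. With 1 library left out, the genotype difference in GV oocytes ran from -0.18 to 0.11 for Padi6 entry 2, from -0.11 to 0.22 for Ooep, from -0.10 to 0.019 for Nlrp2, from -0.12 to 0.12 for Tle6 and from -0.16 to 0.0067 for Nlrp5. In eggs it ran from -0.11 to 0.11 for Nlrp5 and from -0.014 to 0.17 for Zbed3. The WT stage difference of Padi6 entry 1 ran from -0.11 to 0.11, and the genotype by stage term of Nlrp5 from -0.046 to 0.17. None of these had passed the test except the WT stage difference of Nlrp4f.

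Samples share replicate numbers across groups, but the deviations of same-numbered samples had correlations from -0.496 to 0.285, so the numbers were not taken as a pairing. With the replicate block 0 entries were higher in cKO eggs (Khdc3 adjusted p = 0.0515, Ooep adjusted p = 0.0797), and over all entries 620 higher and 141 lower calls became 101 and 7; it changed no other call of a member. Over all entries in eggs, calls were 354 and 105 with no filter, 415 and 86 with no trend and 1328 and 254 with all 16 libraries in 1 fit. In GV oocytes 11 higher and 2 lower calls became 3 and 2 with no filter, 5 and 1 with a mean of at least 5 FPKM, 18 and 4 with no trend, 4 and 2 with the block, 4 and 2 with rescaling and 124 and 33 with all 16 libraries in 1 fit. For the genotype by stage term 114 higher and 20 lower calls became 75 and 8 with 1 FPKM added, 91 and 32 with no filter, 192 and 16 with a mean of at least 5 FPKM, 53 and 7 with the block and 156 and 37 with rescaling. Apart from the rescaling, the causes of these changes were not tested.

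Differences in amount per oocyte and in poly(A) tail length were not measured. Padi6 entry 2 rested on the fewest estimated fragments (163 in its lowest library), and how far depth and the spread between pools each limit the comparisons was not tested.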
